A study of Mus musculus with 18 samples.

Results

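The genes described here are 10 enzymes of the path that turns glucose into lactate: Hk1, Pfkm, Pfkp, Aldoa, Tpi1, Gapdh, Pgk1, Eno2, Ldha and Ldhb. Every probe set whose annotation carries one of these symbols was taken, which gave 30 probe sets for the 10 genes, of 18194 genes in all. RNA was measured on Affymetrix mouse arrays in 18 samples, 1 array each, after T7-based linear amplification. The samples form 6 groups of 3: SOD1 mutant and wildtype motor neurons of the spinal cord, SOD1 mutant and wildtype motor neurons of the facial nucleus in the brainstem, and SOD1 mutant and wildtype ventral spinal cord tissue. Mutations of SOD1, which encodes a superoxide dismutase, cause inherited amyotrophic lateral sclerosis. The labels name no SOD1 allele or transgene promoter, no strain, sex, age or batch and no way of picking the cells, and they do not explain the D60 in each title. No label says which animal a sample came from. The p-values therefore cover the spread among the arrays of a group, part of which may be technical.

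Glycolysis begins with hexokinase, which traps glucose in the cell, and is paced at phosphofructokinase, a tetramer that can be built from muscle-type (Pfkm), platelet-type (Pfkp) and liver-type (Pfkl) subunits. Aldolase and triosephosphate isomerase split and interconvert the sugar, and Gapdh, Pgk1 and enolase carry the fragments towards pyruvate with a yield of NADH and ATP. Lactate dehydrogenase then converts pyruvate and lactate into each other. Its A subunit is commonly linked to lactate production and its B subunit to lactate use, and Eno2 is the neuronal enolase.

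Levels are given as log2(intensity + 16) after quantile normalisation, and the probe set with the highest mean signal stood for a gene. On this scale the brightest probe set of any array reached 17.73 and 8.79, the 40th percentile of gene means, was taken as the level under which a signal is called dim, since the table holds no detection calls. Of the 10 genes, 9 were tested at gene level, each by a bright enough probe set of its own. Gapdh was not, because its 6 probe sets are 3 array controls and 3 sets whose annotation names several genes, so it is described by probe set. Levels of different genes come from different probes and are not compared.

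The cell labels were checked first. The mean of 8 motor neuron markers was between 13.05 and 13.39 in SOD1 mutant and between 12.68 and 13.27 in wildtype spinal motor neurons, and between 12.57 and 12.86 in SOD1 mutant and between 12.27 and 12.45 in wildtype facial motor neurons. It was between 10.97 and 11.21 in SOD1 mutant and between 10.78 and 11.01 in wildtype tissue, below every motor neuron array. Markers of other cells were also measured on the motor neuron arrays. The mean of 8 astrocyte markers was between 12.87 and 13.13 in SOD1 mutant and between 12.07 and 12.50 in wildtype spinal motor neurons, and between 12.12 and 12.73 in SOD1 mutant and between 11.42 and 12.30 in wildtype facial ones. The mean of 8 microglial markers was between 11.61 and 12.24 in SOD1 mutant and between 8.89 and 10.88 in wildtype spinal motor neurons, and between 9.70 and 10.21 in SOD1 mutant and between 8.80 and 10.80 in wildtype facial ones, so that the lowest wildtype arrays were hardly above the dim level. Oligodendrocyte markers (7 genes) averaged between 13.06 and 14.03 over the motor neuron arrays and between 16.13 and 16.37 in tissue, and interneuron markers (5 genes) between 8.35 and 12.58 and between 14.12 and 14.28. Both blood markers lay below the dim level in every group. The 3' to 5' signal ratio of the actin control averaged 30.7 ± 7.36 in SOD1 mutant and 46.5 ± 9.06 in wildtype spinal motor neurons, 39.8 ± 17.0 in SOD1 mutant and 67.6 ± 7.44 in wildtype facial motor neurons, and 1.64 ± 0.12 in SOD1 mutant and 1.63 ± 0.06 in wildtype tissue (SD, n = 3).

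**Figure D1:**
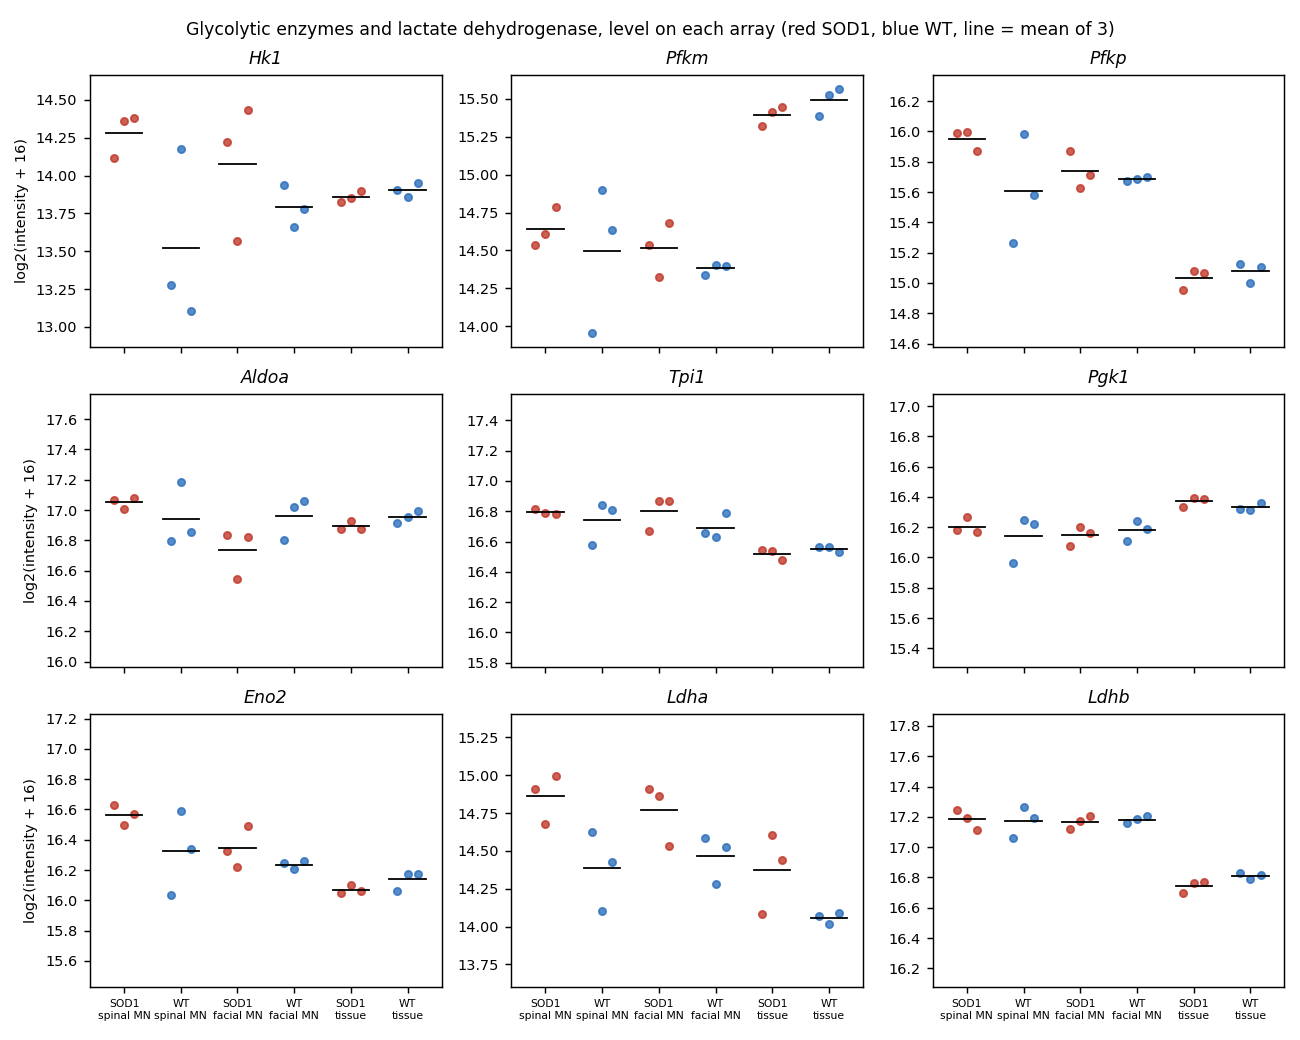
Level of each of the 9 genes tested at gene level on each of the 18 arrays, as log2(intensity + 16) after quantile normalisation on the vertical axis and the 6 groups on the horizontal axis. Each point is 1 array, the line is the mean of 3, and every panel spans the same height; Pfkm and Pgk1 lay lower and Pfkp, Tpi1 and Ldhb higher on all 12 motor neuron arrays than on the 6 tissue arrays (Pfkm and Pgk1 turned higher with a common median), and SOD1 and WT points of most genes overlapped.

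The first question was whether SOD1 mutant samples differed from wildtype ones in these enzymes. None of the 9 tested genes passed an adjusted p of 0.05 in limma in any of the 3 kinds of sample. Over all 10916 genes tested, 0.0641% were called in spinal motor neurons, 0% in facial motor neurons and 0.641% in tissue. At an unadjusted p under 0.05 there were 2 of the 9 genes in spinal motor neurons, 1 in facial motor neurons and 1 in tissue, against 1037, 1949 and 1083 of all genes. Tested one by one, no probe set of the 10 genes was called either, with 0.037%, 0% and 0.281% of all probe sets called. The samples are bulk RNA, in which fewer cells of a type and less RNA per cell cannot be told apart.

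Hk1, the main brain hexokinase, had the largest spinal difference of the 9 genes. Its level was 14.11, 14.36 and 14.38 in SOD1 mutant spinal motor neurons, against 13.28, 14.17 and 13.10 in wildtype ones. The second wildtype array lay within the mutant range and the others well below it. The difference was 0.76 (SE 0.26), a 1.70-fold higher signal, with an unadjusted p of 0.0127 and an adjusted p of 0.447 in limma. Without wildtype replicate 2 it became 1.09 with an adjusted p of 0.00936, while the number of all genes called became 666 (6.1%), against 7 with all arrays. In facial motor neurons Hk1 was at 14.22, 13.57 and 14.43 in SOD1 mutant samples and 13.94, 13.66 and 13.78 in wildtype samples, with overlap. In tissue it was at 13.83, 13.85 and 13.90 in SOD1 mutant and 13.90, 13.86 and 13.95 in wildtype samples, with overlap.

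The phosphofructokinase subunits overlapped between genotypes. Pfkp was at 15.99, 15.996 and 15.87 in SOD1 mutant spinal motor neurons, against 15.26, 15.98 and 15.58 in wildtype ones, where replicate 2 again lay at the mutant level. The difference was 0.35 (SE 0.17, adjusted p = 0.540 in limma), and 0.53 without wildtype replicate 2 (adjusted p = 0.0271, again with 6.1% of all genes called). Pfkm was at 14.54, 14.61 and 14.79 in SOD1 mutant and 13.96, 14.90 and 14.63 in wildtype spinal motor neurons, so the wildtype arrays lay on both sides of the mutant ones. In facial motor neurons the differences were 0.05 for Pfkp and 0.13 for Pfkm, and in tissue -0.04 and -0.10, each within overlapping groups.

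The enzymes of the middle and lower path differed little. In spinal motor neurons the SOD1 minus wildtype differences were 0.11 for Aldoa, 0.05 for Tpi1, 0.06 for Pgk1 and 0.24 for Eno2. Eno2 was at 16.63, 16.50 and 16.57 in SOD1 mutant samples, against 16.04, 16.59 and 16.34 in wildtype ones. Aldoa in facial motor neurons was the one gene here with an unadjusted p under 0.05: it was at 16.84, 16.54 and 16.82 in SOD1 mutant samples, against 16.80, 17.02 and 17.06 in wildtype ones, a difference of -0.23 (SE 0.10, adjusted p = 0.272 in limma) with 1 wildtype array inside the mutant range. In tissue the differences of these 4 genes lay between -0.07 and 0.04.

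Gapdh, the redox step of the path and a common loading control, was read by its control probe set at the 3' end. That set gave 17.02, 17.10 and 17.05 in SOD1 mutant and 17.02, 17.10 and 17.02 in wildtype spinal motor neurons. It gave 16.99, 16.98 and 16.95 in SOD1 mutant and 17.00, 16.97 and 16.98 in wildtype facial motor neurons, and 16.99, 17.07 and 17.04 in SOD1 mutant and 17.02, 16.98 and 17.12 in wildtype tissue. All 18 values lay between 16.95 and 17.12, and the genotypes overlapped in each kind.

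Ldha was the one gene with a positive difference between genotypes in all 3 kinds of sample, each made of its own arrays. That held under all 18 alternative settings of each comparison. Settings that alter only the filter, the genes tested, the trend, the shared fit or the replicate block leave a difference of group means unchanged. Ldha was read by 1 probe set, so averaging the sets of a gene leaves it unchanged too, and no second set can be compared. It was at 14.91, 14.68 and 14.99 in SOD1 mutant spinal motor neurons, against 14.62, 14.10 and 14.43 in wildtype ones. The groups did not overlap, as was the case for 14.3% of all genes tested, and the difference was 0.48 (SE 0.17), a 1.39-fold higher signal with an unadjusted p of 0.0185 and an adjusted p of 0.470 in limma. In facial motor neurons Ldha was at 14.91, 14.86 and 14.53 in SOD1 mutant samples, against 14.59, 14.28 and 14.53 in wildtype ones. The lowest mutant array there lay below the highest wildtype array, and the difference was 0.30 (SE 0.14, adjusted p = 0.289 in limma). In tissue Ldha was at 14.08, 14.60 and 14.44 in SOD1 mutant samples, against 14.07, 14.02 and 14.09 in wildtype ones. The mutant replicate 1 array lay within the wildtype range and the other two above it. The difference was 0.32 (SE 0.12, adjusted p = 0.433 in limma), and 0.46 without mutant replicate 1 (adjusted p = 0.0402, with 119 of all genes called, against 70 with all arrays).

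Ldhb moved differently. It was at 17.24, 17.19 and 17.12 in SOD1 mutant and 17.06, 17.26 and 17.19 in wildtype spinal motor neurons, and at 17.12, 17.17 and 17.20 in SOD1 mutant and 17.16, 17.19 and 17.20 in wildtype facial motor neurons, so the genotypes overlapped in both. In tissue it was at 16.70, 16.76 and 16.77 in SOD1 mutant samples and 16.83, 16.79 and 16.81 in wildtype samples. These did not overlap, as for 15.7% of all genes, but the difference was only -0.07 (SE 0.05, adjusted p = 0.685 in limma). In facial motor neurons, where 24.1% of all genes did not overlap, none of the 9 genes was among them.

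After these values were seen, the genotype difference averaged over the 3 kinds of sample was fitted over all 18 arrays in limma. Ldha was 0.36 higher in SOD1 mutant samples (SE 0.09, 95% confidence interval 0.18 to 0.55, adjusted p = 0.0415), and it was the one gene of the 9 called, with 1.77% of all genes called. The size ran between 0.28 and 0.46 over 29 alternatives, some of which cannot change it. The adjusted p in limma ran between 0.0228 and 0.167 and was under 0.05 in 10 of them. Without wildtype spinal replicate 2, 3 of the 9 genes and 9.72% of all genes were called. Because the fit was chosen for this pattern, it is a description. The microglial and astrocyte marker means given above were also higher in SOD1 mutant than in wildtype spinal motor neurons, and the microglial mean was between 12.27 and 12.48 in SOD1 mutant and between 11.50 and 11.62 in wildtype tissue. In facial motor neurons the microglial means overlapped, and of the 6 microglial markers tested there 2 had a positive difference and none was called. None of the 7 astrocyte markers tested there was called either. In spinal motor neurons 1 of 8 microglial and 1 of 7 astrocyte markers were called higher, and in tissue 5 of 8 and 1 of 8. Over all 10916 genes tested, 6 were called higher in spinal motor neurons and 55 in tissue. Of the astrocyte markers tested, 6 of 7 had a positive difference in spinal motor neurons, 6 of 7 in facial ones and 7 of 8 in tissue. Over all genes these shares were 51.5%, 52.2% and 48.8%. The astrocyte mean was between 14.99 and 15.14 in SOD1 mutant and between 14.83 and 14.85 in wildtype tissue. The actin ratio was lower in both kinds of SOD1 mutant motor neurons. The part of these markers in the Ldha difference was not tested. With the actin ratio in the fit the average Ldha difference was 0.46 (adjusted p = 0.167).

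**Figure D2:**
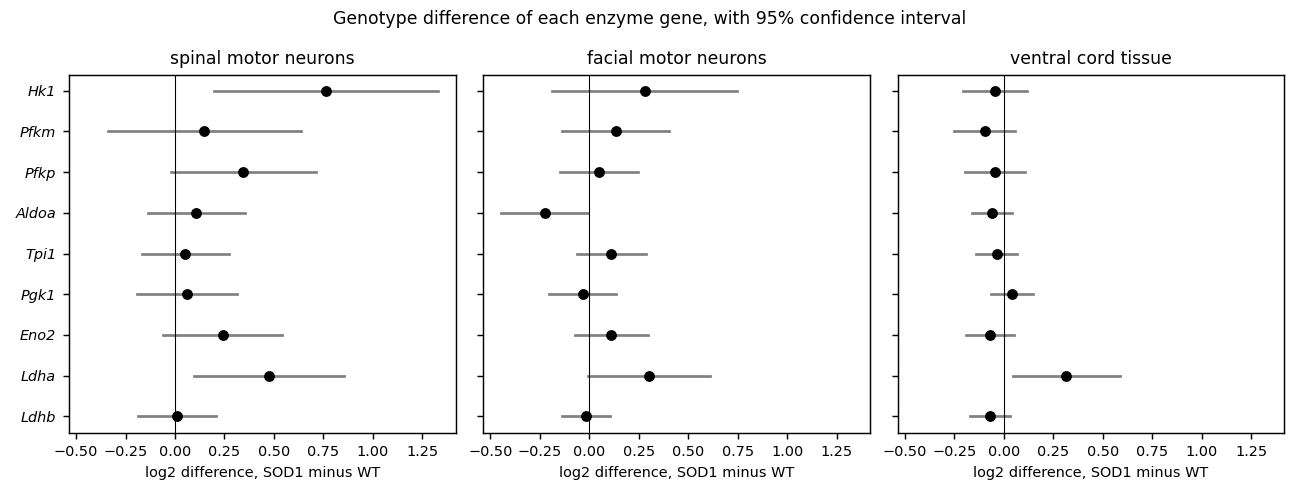
Log2 difference between SOD1 and WT samples for each of the 9 genes (points) with its 95% confidence interval from limma (lines), in spinal motor neurons, facial motor neurons and tissue. The points of Ldha lie right of 0 in all 3 panels, at 0.48, 0.30 and 0.32, the spinal intervals of Hk1 and Ldha and the tissue interval of Ldha do not reach 0, and the facial interval of Aldoa lies below 0; no gene passed the adjusted threshold.

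The promoters of the 2 subunit genes of lactate dehydrogenase are shown as a description. For Ldha these are the 250 bases before the first listed start, on the plus strand at chr7:46845554-46845803. For Ldhb they are the 250 bases before the start, on the minus strand at chr6:142507958-142508207. Both come from RefSeq (GRCm38.p6), 5' to 3'. Neither gene was called between genotypes in any one kind of sample, and a link of these letters to the levels was not tested. Capitals mark the letters ACGTG on either strand, the core of the element bound by hypoxia-inducible factors. It overlaps the E-box CACGTG, which many other factors bind.
Ldha: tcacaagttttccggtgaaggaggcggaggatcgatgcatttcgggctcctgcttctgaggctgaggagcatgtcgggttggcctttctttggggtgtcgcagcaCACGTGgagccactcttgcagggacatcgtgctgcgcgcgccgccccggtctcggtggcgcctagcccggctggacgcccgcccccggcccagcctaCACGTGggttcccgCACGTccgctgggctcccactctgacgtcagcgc
Ldhb: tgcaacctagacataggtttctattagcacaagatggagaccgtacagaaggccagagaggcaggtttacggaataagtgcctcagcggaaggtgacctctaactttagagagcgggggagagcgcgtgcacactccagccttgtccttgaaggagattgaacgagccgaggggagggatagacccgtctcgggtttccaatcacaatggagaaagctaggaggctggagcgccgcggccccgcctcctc
The Ldha window held 5 matches in 3 stretches, and that of Ldhb held none. The second listed start of Ldha had no match. Of the 10 genes, Pfkm, Aldoa, Pgk1 and Ldha had a match in at least one of their windows, 4 of 10, against 18.5% of 27018 genes in the table and 16.6% of its 32841 windows. Genes with several starts have more windows in which to match. A match is a description of these letters and not of binding.

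The balance of the subunits can be read within an array, where scaling of the whole array cancels apart from the quantile step. The Ldhb minus Ldha signal averaged 2.32 ± 0.20 in SOD1 mutant and 2.79 ± 0.36 in wildtype spinal motor neurons, 2.40 ± 0.24 and 2.72 ± 0.17 in SOD1 mutant and wildtype facial motor neurons, and 2.37 ± 0.23 and 2.75 ± 0.03 in SOD1 mutant and wildtype tissue (log2, SD, n = 3). These are probe signals, so their sign says nothing about which transcript is more abundant. In the values as deposited, without the quantile step, the arrays ranged from 2.16 to 2.46 in SOD1 mutant and from 2.75 to 2.96 in wildtype spinal motor neurons, from 2.21 to 2.40 in SOD1 mutant and from 2.68 to 3.01 in wildtype facial motor neurons, and from 2.09 to 2.34 in SOD1 mutant and from 2.47 to 2.60 in wildtype tissue. The genotypes did not overlap in any of the 3 kinds in the deposited values. After quantile normalisation they did not overlap in tissue and did in both kinds of motor neurons. This ratio was looked at after the Ldha values were known and has no test of its own. How often the ratio of other gene pairs separates the genotypes was not counted. Of single genes after quantile normalisation, 14.3% did not overlap in spinal motor neurons, 24.1% in facial motor neurons and 15.7% in tissue.

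Across the 9 genes, all had a positive spinal SOD1 minus wildtype difference, with a median of 0.15 against 0.01 over all genes, 6 did in facial motor neurons (median 0.11, all genes 0.02) and 2 in tissue (median -0.04, all genes -0.01). That count rests on the scaling. With the deposited values as they are, 5 of the 9 were positive in spinal motor neurons, and 4 with arrays shifted to a common median. The test of whether the genotype difference itself was larger in spinal motor neurons than in tissue called none of the 9 (0.055% of all genes called), and neither did the test between spinal and facial motor neurons (0% of all genes). At an unadjusted p under 0.05 there was 1 of the 9 in each, against 966 and 987 of all genes. Without wildtype spinal replicate 2, Hk1 (1.14, adjusted p = 0.00211), Pfkp (0.57), Aldoa (0.29) and Eno2 (0.44) passed the first of these tests in limma, and so did 877 of all genes (8.03%), against 6 with all arrays. Of the 3 wildtype spinal arrays, that one had the highest signal for the 8 genes other than Ldha, and the lowest for Ldha.

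The second question was how motor neurons differ from the tissue around the spinal ones. In these comparisons most genes of the arrays differ, so a call by itself says little. In SOD1 mutant spinal motor neurons against SOD1 mutant tissue, 7 of the 9 genes were called higher and 2 lower, against 42% and 26.8% of all genes (68.8% in both directions). In wildtype spinal motor neurons against wildtype tissue 2 were higher and 1 lower (35.5% and 23.1% of all genes, 58.7% in both directions). In SOD1 mutant facial motor neurons 4 were higher and 2 lower (40.6% and 24.7%, 65.3% in both), and in wildtype facial motor neurons likewise 4 and 2 (41.3% and 26.9%, 68.3% in both). Groups that do not overlap are as common here: in the same order of comparisons, 9, 6, 7 and 7 of the 9 genes did not overlap with tissue, against 72.9%, 67%, 70.6% and 73.1% of all genes. Spinal and facial motor neurons of a genotype were set against the same 3 tissue arrays, so these comparisons are not independent. Motor neuron and tissue arrays also differ in the actin ratio given above, which separates them completely. Its part in the differences was not tested.

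The phosphofructokinase subunits moved in opposite directions. Over the 12 motor neuron arrays Pfkm ran between 13.96 and 14.90, all below the 6 tissue arrays at 15.32, 15.41 and 15.45 in SOD1 mutant and 15.39, 15.52 and 15.56 in wildtype samples. Pfkp ran between 15.26 and 15.996 in motor neurons, all above tissue at 14.96, 15.08 and 15.07 in SOD1 mutant and 15.12, 15.00 and 15.11 in wildtype samples. Pfkm was lower in motor neurons by a log2 difference of -0.75 (SOD1 mutant spinal), -0.996 (wildtype spinal), -0.88 (SOD1 mutant facial) and -1.11 (wildtype facial), with adjusted p of 0.00424 or less in limma. Pfkp was higher by 0.92, 0.53, 0.70 and 0.61 in the same order, with adjusted p of 0.0271 or less. Shifting the arrays to a common median turned the Pfkm difference positive in all 4 comparisons (0.19 to 0.47), while Pfkp stayed higher. Averaging the probe sets of Pfkp turned its difference negative in all 4, as its other sets differ.

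Their ratio within an array does not depend on a shift of the array. Pfkp minus Pfkm was 1.31 ± 0.20 in SOD1 mutant and 1.11 ± 0.18 in wildtype spinal motor neurons, and 1.22 ± 0.17 in SOD1 mutant and 1.31 ± 0.02 in wildtype facial motor neurons, against -0.36 ± 0.02 in SOD1 mutant and -0.42 ± 0.14 in wildtype tissue (log2, SD, n = 3). The lowest motor neuron array was at 0.95 and the highest tissue array at -0.26. In the deposited values the group means were 1.30, 1.19, 1.29 and 1.45 in the same order of motor neuron groups, and -0.33 and -0.37 in tissue. Genotypes overlapped in each kind of sample. The ratio shows that the 2 probe sets differed unequally between motor neurons and tissue, not which of them changed. The third subunit gene, Pfkl, was higher in SOD1 mutant spinal (0.78, adjusted p = 0.000239) and facial (0.50, adjusted p = 0.0338) motor neurons in limma. In wildtype motor neurons it differed by 0.13 and 0.42, below the threshold.

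**Figure D3:**
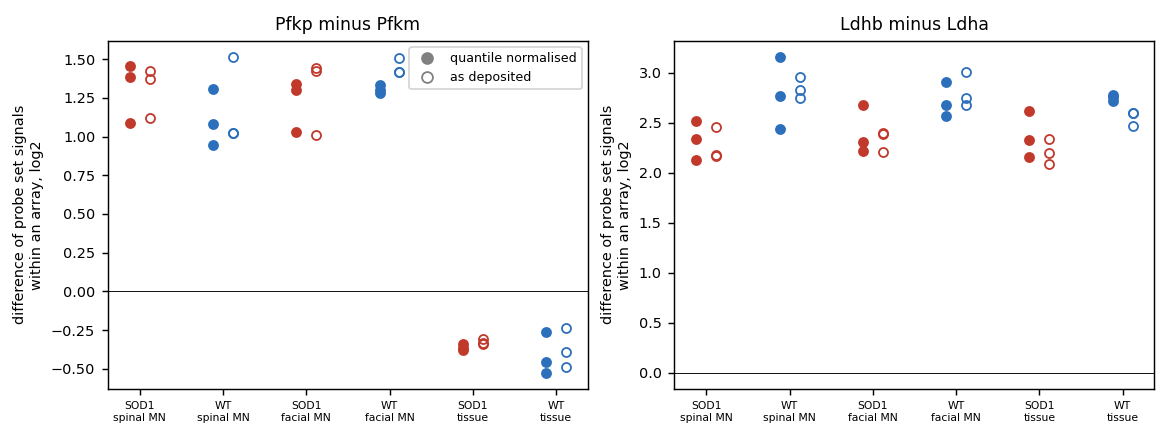
Difference between 2 probe set signals within each array (log2, vertical axis) for Pfkp minus Pfkm (left) and Ldhb minus Ldha (right) in the 6 groups, with quantile normalised values as filled and deposited values as open points (red SOD1, blue WT). The left panel separates all motor neuron arrays, at 0.95 or more, from tissue arrays, at -0.24 or less; in the right panel the open SOD1 points lie below the open WT points in each kind of sample.

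The lactate dehydrogenase genes had positive differences in all 4 comparisons. Ldhb was higher in motor neurons by 0.44 and 0.36 at the spinal site and 0.42 and 0.37 at the facial site (SOD1 mutant first in each pair), with adjusted p of 0.00664 or less in limma. Its 12 motor neuron values lay between 17.06 and 17.26 and its 6 tissue values between 16.70 and 16.83, without overlap. Ldha was higher by 0.48 in SOD1 mutant spinal motor neurons (adjusted p = 0.0106) and 0.41 in wildtype facial ones (adjusted p = 0.00589). The values of 0.32 in wildtype spinal and 0.39 in SOD1 mutant facial motor neurons missed the threshold (adjusted p = 0.105 and 0.0515 in limma). Both genes had a positive difference under each of the 17 alternatives in each comparison. As said above, part of these settings cannot change a difference of group means.

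Hexokinase showed no common direction. Hk1 was higher in SOD1 mutant spinal motor neurons than in SOD1 mutant tissue (0.42, SE 0.10, adjusted p = 0.00444 in limma). Its differences were -0.39 in wildtype spinal, 0.21 in SOD1 mutant facial and -0.11 in wildtype facial motor neurons, and none of these passed.

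Of the middle and lower path, Tpi1 and Eno2 had positive differences in all 4 comparisons and under each of the 17 alternatives. Here too, part of these settings cannot change a difference of group means. In both wildtype comparisons Tpi1 and Eno2 lay below the median of all genes tested, which was 0.22. Tpi1 was called in 3, with 0.28 in both SOD1 mutant comparisons and 0.14 in wildtype facial motor neurons, and it was at 0.19 in wildtype spinal ones. Eno2 was called in SOD1 mutant spinal (0.49, adjusted p = 4.77e-05 in limma) and facial motor neurons (0.28, adjusted p = 0.0193), and was at 0.18 and 0.10 in the wildtype comparisons. Its 3 SOD1 mutant spinal values, at 16.50 to 16.63, all lay above the tissue values of 16.05 to 16.18. Pgk1, which makes the first ATP of the path, was lower by 0.17 in SOD1 mutant spinal, 0.23 in SOD1 mutant facial and 0.15 in wildtype facial motor neurons. Each of these 3 passed, and the log2 difference in wildtype spinal ones was -0.19. Aldoa was called in SOD1 mutant spinal motor neurons (0.16, adjusted p = 0.0180), and its other differences lay between -0.16 and 0.01.

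The scale of the arrays decides several of these directions. The median of all genes tested was 0.22 to 0.25 higher in motor neurons after quantile normalisation. It was 0.69 to 0.83 higher with a common median, and 0.04 to 0.13 lower in the deposited values. After quantile normalisation the median of the 9 genes was 0.42 in SOD1 mutant and 0.18 in wildtype spinal motor neurons. In SOD1 mutant and wildtype facial ones it was 0.28 and 0.10, so both wildtype medians lay below that of all genes. With a common median all 9 genes had positive differences in all 4 comparisons, and Pgk1 was called higher in all 4 with either other scaling.

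Probe sets of one gene often disagreed, as the plot of all 30 sets shows. A second Hk1 set (1420901_a_at) was at 5.31 to 9.69 in motor neurons, against 13.21 to 13.64 in SOD1 mutant and 13.51 to 13.89 in wildtype tissue. With dim motor neuron signals raised to 8.79, the motor neurons were lower by at least 18.5-fold to 27.5-fold over the 4 comparisons. A second Pfkp set (1430634_a_at) was at 5.18 to 8.48 in motor neurons, all dim, against 11.96 to 12.41 in tissue, and was lower by at least 10.4-fold to 11.6-fold. The opposite was seen for a Pgk1 set (1439435_x_at), at 15.43 to 16.25 in motor neurons and 12.58 to 13.29 in tissue (2.81 to 3.41 higher), against 0.15 to 0.23 lower for the set that stands for the gene. These sets passed the threshold in every comparison with tissue, where 57.4%, 47.7%, 55.3% and 57.4% of all probe sets were called (SOD1 mutant spinal, wildtype spinal, SOD1 mutant facial, wildtype facial). The positions of the probes were not used here, so which end or transcript each set reads was not examined.

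With every probe set tested, 2 of 3 Tpi1 sets and 2 of 4 Ldhb sets were called higher in all 4 comparisons. The 3 Tpi1 sets ran between 0.14 and 0.79 higher over the 4 comparisons, and the 4 Ldhb sets between -0.05 and 0.51. The 5 Aldoa sets split: 1433604_x_at was lower by 0.50 to 0.90, 1447734_x_at was higher by 0.848 to 1.502, 1439375_x_at higher by 0.32 to 0.55, and the 2 others lay between -0.16 and 0.31. Another Pgk1 set (1438640_x_at) was higher by 0.31 to 0.59. The third Pfkp set (1437759_at), at 5.79 to 10.46 on all arrays, was not called, and the third Hk1 set (1436822_x_at), whose annotation also lists other genes, differed by -0.38 to 0.23.

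**Figure D4:**
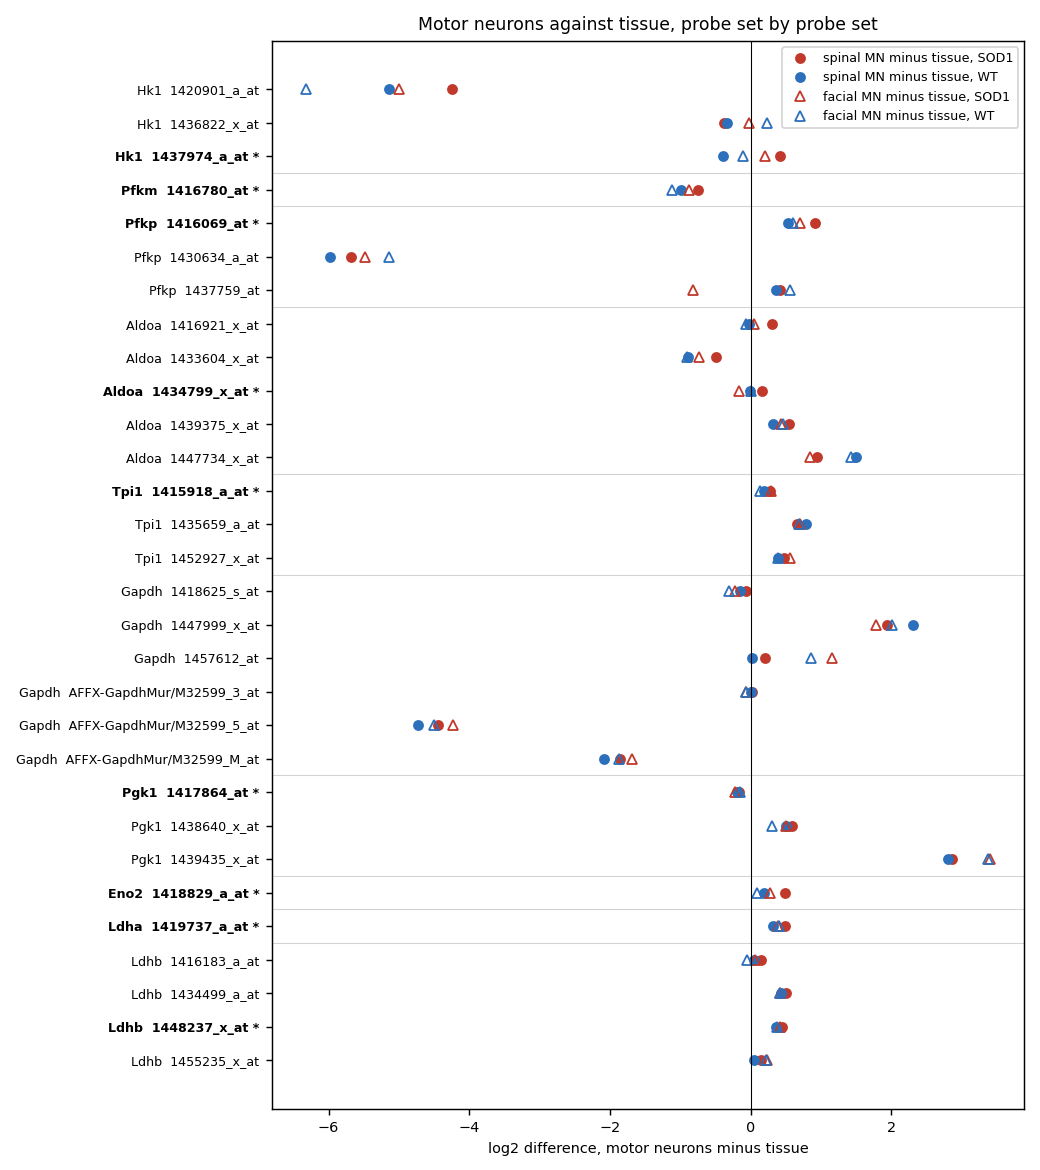
Log2 difference between motor neurons and tissue of the same genotype for each of the 30 probe sets of the 10 genes, with circles for spinal and triangles for facial motor neurons (red SOD1, blue WT). Bold names with an asterisk are the sets that stand for a gene. Single sets of Hk1 and Pfkp lie beyond -4, where dim motor neuron signals leave the size beyond the bounds in the text uncertain. The 5' control set of Gapdh also lies beyond -4, with motor neuron signals of 12.16 to 13.01, above the dim level. A Pgk1 set lies near 3, far from the other sets of the same gene.

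Gapdh gave the clearest view of this, since its 3 control sets are placed along the transcript. The 3' set differed from tissue by -0.06 to 0.02 and was not called in any comparison. The middle set was at 14.63 to 15.56 in motor neurons and 17.07 to 17.16 in tissue (-1.69 to -2.08). The 5' set was at 12.16 to 13.01 in motor neurons and 17.15 to 17.26 in tissue (-4.23 to -4.74), and both were called in all 4 comparisons. The 3' over 5' ratio of Gapdh signals averaged 21.1 ± 0.58 in SOD1 mutant and 32.4 ± 15.7 in wildtype spinal motor neurons, 18.4 ± 3.60 in SOD1 mutant and 23.6 ± 3.52 in wildtype facial motor neurons, and 0.88 ± 0.04 in SOD1 mutant and 0.87 ± 0.04 in wildtype tissue (SD, n = 3). The 3 control sets of Gapdh thus gave 3 different sizes of difference from tissue. Sets whose annotation names further genes beside Gapdh gave -0.31 to -0.07 (1418625_s_at) and 1.78 to 2.31 (1447999_x_at), and cannot be assigned to it. Another such set (1457612_at) lay at 6.37 to 9.79, on both sides of the dim level, and cannot be assigned either.

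**Figure D5:**
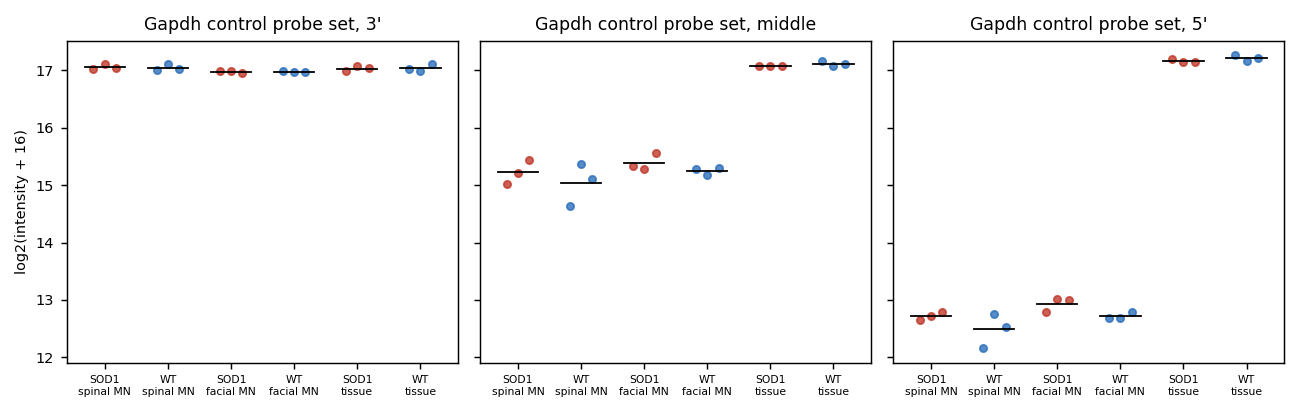
Level of the 3 Gapdh control probe sets (3', middle and 5' part of the transcript) on each array, as log2(intensity + 16) on one vertical axis, in the 6 groups (red SOD1, blue WT, line for the mean of 3). The 3' set lies near 17 in every group, while the 5' set lies between 12.16 and 13.01 in motor neurons and above 17 in tissue.

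The last question was whether spinal and facial motor neurons differ in the path, since facial motor neurons sit in the brainstem. None of the 9 genes was called in SOD1 mutant samples (7.3% of all genes called) or in wildtype samples (3.96% of all genes called). At an unadjusted p under 0.05 there were 2 of the 9 in SOD1 mutant and 0 in wildtype samples, against 2493 and 2348 of all genes. Aldoa, Pfkp and Eno2 did not overlap between the sites in SOD1 mutant samples and none of the 9 did so in wildtype samples, against 28.4% and 28.5% of all genes. Aldoa came nearest: it was at 17.07, 17.01 and 17.08 in SOD1 mutant spinal motor neurons, against 16.84, 16.54 and 16.82 in SOD1 mutant facial ones. The difference was 0.32 (SE 0.09, adjusted p = 0.0515 in limma), past the threshold in 3 of 17 alternatives. In wildtype samples it was -0.02. Among the probe sets only the Pgk1 set 1439435_x_at was called, lower in spinal than in facial motor neurons by a log2 difference of -0.54 in SOD1 mutant (adjusted p = 0.0382) and -0.56 in wildtype samples (adjusted p = 0.0414), with 3.24% and 2.05% of all probe sets called.

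The remaining steps were read from 17 other isoenzyme genes, of which 13 had a probe set of their own. Gpi1 and Eno1 had none here. In SOD1 mutant spinal, wildtype spinal, SOD1 mutant facial and wildtype facial motor neurons, 7, 6, 6 and 7 were bright enough to be tested. Of these, 2, 1, 2 and 0 were called higher than in tissue, against 42%, 35.5%, 40.6% and 41.3% of all genes. Called lower in each of the 4 comparisons were 3, against 26.8%, 23.1%, 24.7% and 26.9% of all genes. They were Aldoc, the brain aldolase typical of astrocytes (-1.27 and -1.34 in SOD1 mutant and wildtype spinal, -1.15 and -0.91 in SOD1 mutant and wildtype facial motor neurons), Pkm, the pyruvate kinase gene (-0.27 and -0.78, -0.59 and -0.84), and Pgam1, the phosphoglycerate mutase (-0.22 and -0.56, -0.35 and -0.61). With a common median Pkm and Pgam1 turned positive in all 4 and Aldoc in both facial comparisons. The mean of astrocyte markers ran from 11.42 to 13.13 in motor neurons and from 14.83 to 15.14 in tissue, and its part in the Aldoc difference was not tested. None of the isoenzyme genes was called between genotypes. Hk2, the inducible hexokinase, was at 10.35, 9.60 and 10.81 in SOD1 mutant spinal motor neurons, against 7.09, 9.27 and 8.05 in wildtype spinal ones and 8.50, 8.40 and 7.48 in SOD1 mutant facial ones. As 2 of the wildtype spinal and all 3 facial arrays were dim, it passed the filter through the SOD1 mutant spinal arrays. With dim signals raised to 8.79 it was at least 2.46-fold higher than in wildtype spinal motor neurons. It was at least 2.75-fold higher than in SOD1 mutant facial ones. On the values before raising, the adjusted p was 0.396 and 0.0204 in limma. As Hk2 entered these fits through its high group, these p-values are a description and lend the difference no support.

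Lists of neighbouring pathways were read in the same way, and none of their genes was called between genotypes in any kind of sample. Of 6 tested transport genes, 3, 2, 3 and 3 were higher and 3 lower in each comparison with tissue (SOD1 mutant spinal, wildtype spinal, SOD1 mutant facial, wildtype facial). Over all genes, 42%, 35.5%, 40.6% and 41.3% were called higher and 26.8%, 23.1%, 24.7% and 26.9% lower in the same order. These shares stand beside each list here and below, where few genes were tested. Bsg, basigin, the partner that brings monocarboxylate transporters to the membrane, was lower by 3.84 to 4.46 on the log2 scale. Each gene of these lists is given by its brightest probe set, and the Gapdh control sets above differed widely by position. Where along its transcript the Bsg set lies was not examined. Of 7 genes that control glycolysis, 3, 3, 2 and 3 were higher and 2, 1, 1 and 3 lower. Tigar, a phosphatase that lowers fructose-2,6-bisphosphate, was higher by 1.96 to 2.31, and Epas1, a hypoxia-inducible factor strong in vessels, was lower by 2.07 to 2.67. Endothelial markers had a mean of 8.21 to 9.71 over the motor neuron arrays and 11.48 to 11.80 in tissue.

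Of 12 genes of pyruvate entry into mitochondria, 4, 4, 4 and 3 were higher and 5, 2, 6 and 3 lower. Pdhb, a subunit of pyruvate dehydrogenase, was higher by 0.72 to 1.05, and Pdk2, a kinase that switches that enzyme off, was lower by 1.18 to 2.78. Of 9 genes of the NADH shuttles, 3, 1, 3 and 3 were higher and 5 lower in each, with Gpd2, the mitochondrial glycerol phosphate dehydrogenase, lower by 1.83 to 2.70. Of 8 glycogen genes, 5, 5, 4 and 4 were higher and 2, 1, 1 and 1 lower. Pygl, the liver-type phosphorylase, was higher by 1.63 to 2.49, and Pygm, the muscle type, lower by 2.76 to 3.57. Of 6 pentose phosphate genes, Pgd was the one called higher in each comparison (1.45 to 1.91), and 1, 2, 1 and 2 were lower.

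Between spinal and facial motor neurons few neighbours were called. In SOD1 mutant samples these were 1 of 7 isoenzymes (Hk2), 1 of 7 control genes, 1 of 12 pyruvate entry genes and 1 of 8 glycogen genes. In wildtype samples they were 1 of 7 control genes and 1 of 12 pyruvate entry genes. Over all genes, 7.3% were called in SOD1 mutant and 3.96% in wildtype samples. Markers of other cells differed too. In SOD1 mutant samples 7 of 8 tested microglial and 2 of 8 astrocyte markers were called higher at the spinal site. So was 1 of 4 interneuron markers. In wildtype samples these counts were 0 of 7, 2 of 7 and 2 of 4. Over all 10916 genes tested, 446 and 233 were called higher. Of 8 motor neuron markers, 2 were called higher and 2 lower in SOD1 mutant samples, and 1 and 1 in wildtype ones. The part of all these markers in the differences below was not tested. Pfkfb3, which makes the activator of phosphofructokinase, was at 12.13, 12.52 and 12.24 in SOD1 mutant spinal motor neurons, against 11.64, 11.05 and 11.50 in SOD1 mutant facial ones. It was at 12.35, 12.35 and 11.996 in wildtype spinal motor neurons, against 11.06, 10.80 and 10.76 in wildtype facial ones. The groups did not overlap in either genotype, and the differences were 0.90 (adjusted p = 0.0310) and 1.36 (adjusted p = 0.0149) in limma. Pdk3, another pyruvate dehydrogenase kinase, was higher by 0.72 (adjusted p = 0.0293) in SOD1 mutant and 0.97 (adjusted p = 0.0240) in wildtype samples. Pygl was lower by a log2 difference of -0.85 in SOD1 mutant samples (adjusted p = 0.0388) and at -0.30 in wildtype ones. Of 16 alternatives each, Pfkfb3 was called in 8 and 12, Pdk3 in 10 and 11 and Pygl in 7.

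Over the 6 group means, the tested genes whose centred profile lay nearest to the median profile of the 9 genes were Actg1, Gpr176, Atp5a1, Mapre1 and Hspa8, at root mean square distances of 0.02 to 0.04 log2 units. Nearest to Ldha were Sod1 (0.04), Socs7 (0.06) and Rab27a (0.06), and nearest to Ldhb were Ywhab, Tuba4a and Nefl (0.02 to 0.03). The centred Sod1 means were 0.34 in SOD1 mutant and -0.12 in wildtype spinal motor neurons, 0.23 and -0.01 in SOD1 mutant and wildtype facial motor neurons, and -0.03 and -0.41 in SOD1 mutant and wildtype tissue. With 6 points, many genes can lie this close by their ranking alone, and the likeness is a description.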

How the data were processed

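The authors deposited 1 table of linear intensities for 45101 probe sets on 18 arrays. How the scans became intensities is not given in the sources used here. The 2% trimmed mean was 2500.0 on every array, while medians differed (286.2 to 340.6 on motor neuron arrays, 533.2 to 583.3 on tissue arrays). Arrays have no read depth, and 3 arrays per group limit the precision. Values were taken as log2(intensity + 16) and quantile normalised. Gene symbols came from the platform's annotation table. The brightest set with 1 symbol stood for each of 18193 genes, genes under the 40th percentile of a fit were left out (10916 tested), and the differences were fitted by lmFit and eBayes with trend (limma 3.58.1, R 4.3.3), with Benjamini-Hochberg adjustment at 0.05. Each fit used the arrays of its own groups, 12 for interactions. The fit was checked on simulated data.

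The members and lists were chosen with earlier results of these data known. Beside the members, the text names Hk2, Gpi1, Aldoc, Pgam1, Eno1, Pkm and Pfkl, and of each list at most 3 genes a direction with the smallest p among those called without overlap. Alternatives were the scaling, the pseudocount (1, 64), the filter (none, 60th percentile), the mean over probe sets, every probe set, no trend, all arrays in one fit, a replicate block, the actin ratio as a covariate and each array left out. The average over the 3 kinds and the unshifted deposited values were added after the data were seen. Figures were drawn with matplotlib.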

Additional observations from a re-analysis of the deposited data

How the results depend on the processing

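Directions against tissue depended on the scaling, which set the share of higher calls among all called genes at 61.0% in SOD1 mutant spinal, 60.6% in wildtype spinal, 62.1% in SOD1 mutant facial and 60.5% in wildtype facial motor neurons, against 79.4%, 78.6%, 81.4% and 78.5% with arrays shifted to a common median and 49.3%, 46.4%, 48.5% and 48.5% in the values as deposited. In the same order of comparisons, the common median turned Pfkm to 0.47, 0.31, 0.47 and 0.19, Pgk1 to 1.13, 1.29, 1.27 and 1.37, Pkm to 1.02, 0.62, 0.88 and 0.64, Pgam1 to 1.03, 0.82, 1.09 and 0.81, and Taldo1 to 0.37, 0.17, 0.51 and 0.88. It turned Aldoa to 1.41 (wildtype spinal) and 1.24 (SOD1 mutant facial), Hk1 to 0.94 (wildtype facial) and Aldoc to 0.23 and 0.49 (SOD1 mutant and wildtype facial). The deposited values turned Pgk1 to 0.34, 0.47, 0.38 and 0.53, Aldoa to 0.59 (wildtype spinal) and 0.36 (SOD1 mutant facial), Pgam1 to 0.25, 0.00154 and 0.20 (the first 3), Pkm to 0.24 (SOD1 mutant spinal) and Taldo1 to 0.038 (wildtype facial). The mean over probe sets turned Pfkp to -1.45, -1.70, -1.87 and -1.32, Pgk1 to 1.10, 1.04, 1.23 and 1.18, Hk1 to -1.91 and -2.39 (SOD1 mutant spinal and facial), and Pfkl to -0.088, -0.88 and -0.17 (the first 3). These settings change the values themselves; beyond that, the cause was not tested.

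The number of the 9 genes called in wildtype spinal motor neurons against tissue was 3 (58.7% of all genes called), and became 7 with a common median (64.2%), 7 in the deposited values (58.2%), 5 with the mean over probe sets (49.7%), 1 without the trend (57.5%), 5 with all 18 arrays in one fit (63.4%) and 2 to 5 with an array left out (5 without wildtype spinal replicate 1 or 2, with 60.5% and 63.5%). In SOD1 mutant facial motor neurons against tissue it was 6 (65.3%), and 3 without the trend (64%) or without SOD1 mutant tissue replicate 3 (56.1%; 3 to 7 with an array left out). Between SOD1 mutant spinal and facial motor neurons it was 0 (7.3%), and 1 (Aldoa) with a pseudocount of 64 (7.59%), a filter at the 60th percentile (10.1%) or all arrays in one fit (10.7%). Between genotypes, leaving out an array gave 0 to 2 in spinal motor neurons (2 without wildtype replicate 2, with 6.1% of all genes called), 0 to 1 in tissue (1 without SOD1 mutant replicate 1, with 1.09%) and 0 to 4 for the interaction of spinal motor neurons with tissue (4 without wildtype spinal replicate 2, with 877 of all genes called, against 1 to 15 without any other array). The averaged genotype difference, with 1 called (1.77%), gave 0 with either other scaling, the mean over probe sets, no filter, every probe set, no trend, the replicate block or the actin ratio, where 0.275% to 2.05% of all genes were called, and 0 to 3 with an array left out (3 without wildtype spinal replicate 2, with 9.72%).

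The correlation of same-numbered deviations ran from -0.07 to 0.30, over 0.1 in 3 of 27 pairs. In the genotype comparisons it was positive for every replicate number, at 0.02 to 0.30. With 3 arrays per group this cannot decide whether replicate numbers pair the samples. With the replicate block, 9, 3, 5 and 4 of the 9 genes were called against tissue and 0 in the other comparisons, and over all genes 16, 1 and 137 were called between genotypes in spinal motor neurons, facial motor neurons and tissue, against 7, 0 and 70 without it. Over the other settings those 3 counts ran from 0 to 134, 0 to 309 and 4 to 144, and with an array left out from 2 to 666, 0 to 380 and 13 to 119. The counts of all genes against tissue ran from 4725 to 15546, and between spinal and facial motor neurons from 66 to 1903, over all settings. Of 1827 repeats of single members, 1713 kept their side of the threshold (94 of them uncalled values that changed sign), 49 fell below and 38 passed the threshold, and 27 reversed. Groups of 3 arrays, signals near the top of the scale for Ldhb, Aldoa and Gapdh, and dim probe sets limit what can be seen.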
